A study of Mus musculus with 4 samples.

Results

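Peaks of the glucocorticoid receptor (GR) and of E2A that were annotated to exons or untranslated regions (UTRs) of genes in mouse liver are described here. The regions were chosen by their peak calls and by the deposited annotation. Peaks of all 4 samples that shared at least 1 bp were merged, merged regions of 1500 bp or more and regions with any promoter peak were left out, and a region was kept when its peak with the lowest start was annotated Exon, 5′ UTR or 3′ UTR. This gave 579 exon and UTR regions out of 10755 merged regions, of which 10485 were narrower than 1500 bp. GR was called without E2A in 335 of the 579, E2A without GR in 134, and both factors in 110.

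Both cistromes came from livers of male C57BL/6 mice with the wild-type genotype E47+/+, on chow, collected at zeitgeber time 10, and 2 biological replicates were sequenced per antibody. The study describes the E2A ChIP as made on the livers used for GR, but not which samples share an animal. The mice were 10 to 16 weeks old. By title, antibody and genotype fields the 2 groups differed only in the antibody, against GR in one and against E2A in the other. Lists from mutant, hormone-treated or IgG samples were not used here. The labels call the animals untreated, whereas a description supplied with the study calls the livers Dex-treated (Dex is dexamethasone, a synthetic glucocorticoid). Free text on both E2A samples names a GR ChIP, in E47-/- mice for the second, while their titles, antibody and genotype fields give E2A in wild type, which were followed. Whole livers were used, so a peak could not be assigned to a cell type. Of 47 genes on a plasma protein list, 42 were the nearest gene of some merged region, and so were 7 of 28 marker genes of other liver cells. The same share over all annotated genes was not counted, so no cell type is read from these counts. The lists held 1892 to 7334 peaks per sample as intervals with no height, q-value or read count, so how many reads a peak rests on is unknown. Before peak calling the GR libraries had been reduced to 18 mio read pairs each and the E2A libraries to 22 mio, so read depth differed between the groups as well.

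GR is a nuclear receptor that moves to the nucleus when corticosterone or cortisol binds it, and it contacts DNA as a dimer at the glucocorticoid response element (GRE), a palindrome of hexamers around AGAACA. E2A denotes the E proteins encoded by Tcf3, basic helix-loop-helix factors that bind E-boxes of the form CANNTG and are best known from lymphocyte development. In liver GR drives the fasting programme of gluconeogenesis and amino acid breakdown, mostly from enhancers in introns and between genes and from promoters, and exons and UTRs are transcribed DNA in which such sites share sequence with codons or message ends.

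The sequences that carry the clearest GR sites among the exon and UTR regions are shown first. A GRE was searched as the 15-base consensus, on both strands, anywhere in the region. Of the 123 regions with GR in both GR replicates, 34 held a match with at most 1 mismatch, and all 5 matches without a mismatch in regions with GR were among them. Such a region held a peak of each GR replicate, and these peaks did not have to overlap each other. The 12 matches below had the fewest mismatches and then the most samples with a peak, and the 5 without a mismatch come first. Each is the mm10 plus strand read 5′ to 3′, 29 bases long, with the 15 bases of the match in capitals, and is named after the gene nearest to the region.
Acnat2 (chr4:49338180-49338208): ttggaagAGAACATTGTGTTCTgctttgt
Herpud1 (chr8:94392795-94392823): ttccagaAGGACAGAGTGTCCTttatcag
Angptl4 (chr17:33774884-33774912): acaacagAGAACAAAATGTTCTgaggttg
Wipf3 (chr6:54503024-54503052): acactgaAGGACACCATGTTCTacactgc
Tulp1 (chr17:28420314-28420342): agagcacAGAACACCCTGTTCTgaatgtg
Grn (chr11:102433013-102433041): ggtagccGGAACACAGTGTCCAgatgggc
Btbd2 (chr10:80664740-80664768): cctgccaGGAACAGCTCGTCCTaggagag
Slc29a1 (chr17:45585729-45585757): agaaagaAGGACATGATGTTTCctgctgt
Trib1 (chr15:59652449-59652477): ctcacaaAGGACAAGATGTGCTtgataag
Susd1 (chr4:59332146-59332174): tgaaagcAGGGCAGCCTGTTCTataacaa
Zfp385b (chr2:77503891-77503919): gggtcagGTGACACAATGTCCCtaggttc
Epb41l4b (chr4:57070864-57070892): aagccttGGAACATTCTGTTGTgtgctta

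At 11 of these 12 sites the match lay inside the peaks of both GR replicates. The exception was the 3′ UTR region of Trib1, a pseudokinase gene that promotes breakdown of C/EBPα, where the match lay in the peak of GR replicate 1 alone. The match at Acnat2 stood 4 bp from the centre of its region and inside the peaks of both GR replicates and E2A replicate 1. Its nearest gene encodes an acyltransferase of peroxisomes, but the region lies in the 3′ UTR of another gene, Plppr1. At Angptl4, a glucocorticoid target that encodes an inhibitor of lipoprotein lipase, the match lay in the 3′ UTR and in the peaks of GR replicate 1, GR replicate 2 and E2A replicate 1, 215 bp from the centre. The region assigned to Tulp1 lies in an intron of Fkbp5, a glucocorticoid target that encodes a co-chaperone of GR, and had peaks in both GR replicates and in neither E2A replicate. The match at Herpud1, a gene of the endoplasmic reticulum stress response, was inside both GR peaks and outside the peak of E2A replicate 1.

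The label was checked against the GENCODE M21 gene models of the same assembly. The centre of the merged region lay in an annotated exon in 324 of 579 regions, or 56.0% (95% Wilson interval 51.9 to 59.95%). Of these, 116 centres were in coding sequence, 127 in a UTR and 81 in exons of noncoding transcripts. A further 220 centres (38.0%) lay in introns and 35 lay between genes. Among intronic regions, chosen by the same rule from peaks annotated Intron, 4.20% had their centre in an exon. The deposited word therefore marks regions that mostly touch a GENCODE exon, although 32 of the 579 held no exon base. Fewer than 6 in 10 were centred on an exon.

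The share with an exonic centre differed by the deposited word. It was 44.98% of the 329 regions annotated Exon, 61.4% of the 70 annotated 5′ UTR and 73.9% of the 180 annotated 3′ UTR. The 3′ UTR regions were also the most fully exonic, with 101 of 180 lying wholly within exons against 54 of 329 regions annotated Exon. Over all 579 regions, 168 were wholly exonic and 32 held no GENCODE exon base. Of the regions annotated Exon, 230 named an internal exon, 45 the exon of a single-exon transcript, 31 a last exon and 23 a first exon. In 41 regions the merged peaks carried more than 1 annotation word, most often Exon with Intron.

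**Figure D1:**
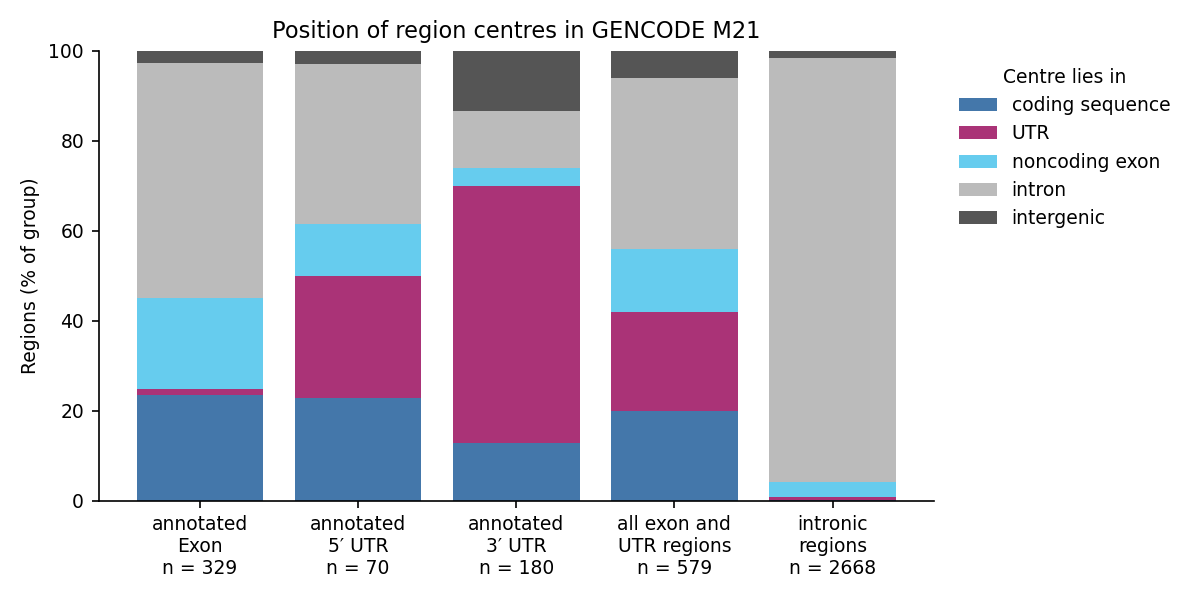
Percent of regions (y axis) whose centre lies in coding sequence, UTR, noncoding exon, intron or between genes by GENCODE M21, for regions annotated Exon, 5′ UTR or 3′ UTR, all 579 exon and UTR regions, and 2668 intronic regions. Exonic centres made up 44.98, 61.4 and 73.9% of the first 3 groups and 4.20% of intronic regions.

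A transcription start site of GENCODE lay within 1 kb of the centre in 172 regions (29.7%, interval 26.1 to 33.6%), although none held a peak annotated as promoter. The share was 54.3% for the 5′ UTR regions, 31.9% for regions annotated Exon and 16.1% for 3′ UTR regions, beside 12.1% of intronic and 8.97% of intergenic regions. The nearest gene in the deposited lists was the gene that held the centre in 384 regions (66.3%), and 544 centres lay in some gene. A nearest gene is used below as a name for a region.

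The calls, which chose the regions, are given as a description. Of the 579 regions, 378 were called in 1 sample, 141 in 2, 37 in 3 and 23 in all 4. By sample, GR replicate 1 had a peak in 226 of them, GR replicate 2 in 342, E2A replicate 1 in 203 and E2A replicate 2 in 92. These numbers followed the sizes of the lists, since they made up 5.63, 4.86, 5.30 and 5.59% of each sample's regions under 1500 bp. The largest single combination was GR replicate 2 alone with 183 regions, followed by E2A replicate 1 alone with 94, GR replicate 1 alone with 79 and both GR replicates without E2A with 73.

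**Figure D2:**
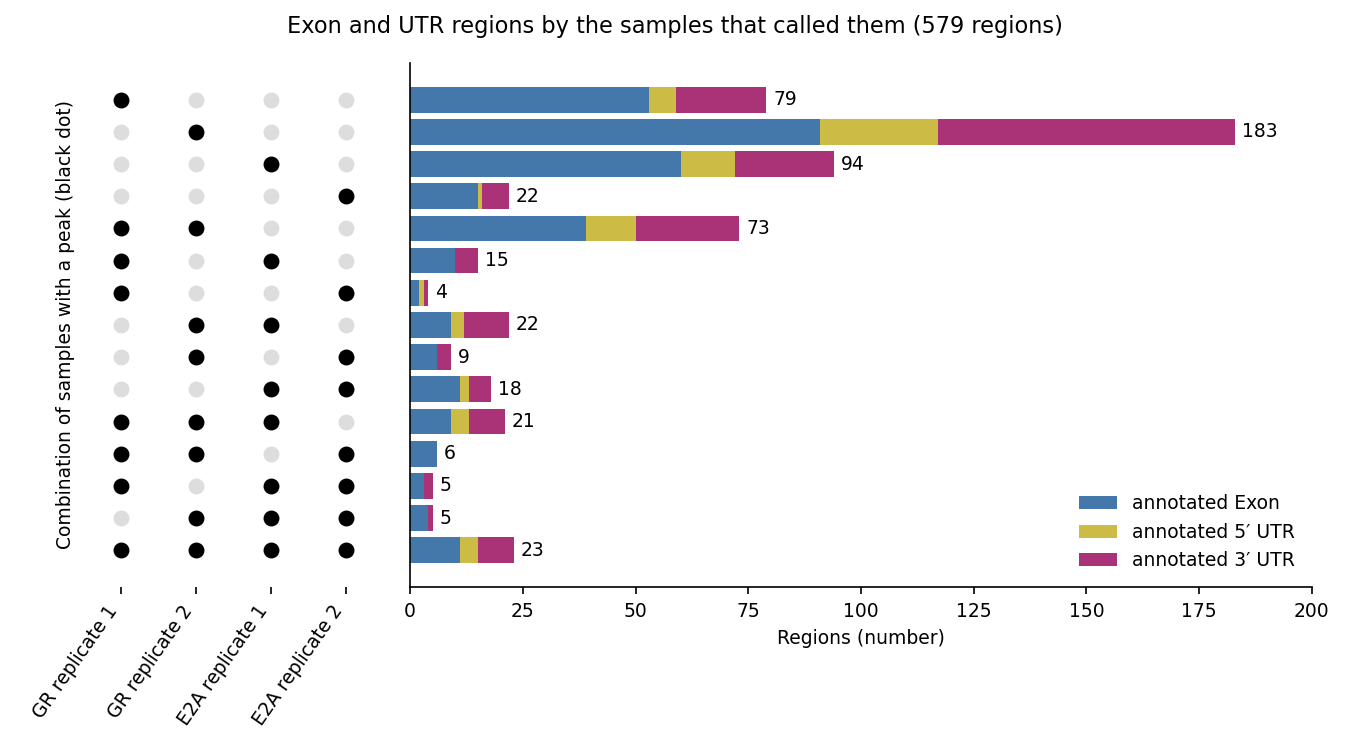
Number of exon and UTR regions (x axis) for each combination of samples with a peak (black dots at the left), with bars divided by the deposited annotation. GR replicate 2 alone gave 183 of the 579 regions, and 23 were called in all 4 samples.

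GR was called in both GR replicates in 123 of the 445 regions with GR (27.6%, interval 23.7 to 32.0%), where the background over all merged regions with GR under 1500 bp was 30.2%. E2A was called in both E2A replicates in 51 of 244 regions with E2A (20.9%, interval 16.3 to 26.4%), beside 22.7% of all merged regions with E2A. Both factors were called in 19% of exon and UTR regions (interval 16.01 to 22.4%), beside 23.5% of all merged regions. These shares come from the calls that chose the regions, and nothing is read from them. In intronic regions the share with both factors was 21.3% (interval 19.7 to 22.8%). Without E2A replicate 1, which supplied most E2A calls, 10.6% of exon and UTR regions had both factors.

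Regions were 251 to 1478 bp wide with a median of 412 bp. The median was 406 bp for GR only, 346.5 bp for E2A only and 569 bp for both. Just inside the width limit lay regions nearest to Neat1 (1478 bp), Malat1 (1444 bp) and Hpx (1415 bp), and just outside it lay regions nearest to Cyp4a32 (1502 bp), Hpx (1511 bp) and Cyp7a1 (1529 bp). In all, 48 exon or UTR regions without a promoter peak were too wide to be kept.

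The 23 regions called in all 4 samples were spread over genes of several kinds. By annotation 11 were Exon, 8 were 3′ UTR and 4 were 5′ UTR. By GENCODE 9 centres were in a UTR, 7 in an intron, 4 in a noncoding exon, 2 in coding sequence and 1 between genes. In all 23 the peaks of the 4 samples shared a common stretch, of 52 to 689 bp with a median of 305 bp, in regions of 416 to 1224 bp. A GR peak was the widest in 18 of the 23, that of replicate 2 in 10 and that of replicate 1 in 8.

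Grn, which encodes the secreted and lysosomal protein progranulin, had its region at chr11:102432738-102433298 in exon 2. The peaks there spanned 528 bp in GR replicate 1, 442 bp in GR replicate 2, 475 bp in E2A replicate 1 and 344 bp in E2A replicate 2, and its GRE with 1 mismatch, shown above, lay inside all 4. Slc29a1, which encodes the nucleoside transporter ENT1, had a 3′ UTR region at chr17:45585290-45585900 with peaks of 462, 598, 371 and 462 bp in the same order. Its GRE lay in 3 of the 4 peaks. At Trib1 (chr15:59652323-59653191, 3′ UTR) the GR peaks spanned 755 and 536 bp and the E2A peaks 362 and 358 bp, and the E2A peaks lay toward the other end of the region from the GRE. Peaks of all 4 samples thus met at these genes, but the GRE was not always in the part they shared. Of 5 regions whose best GRE had 1 mismatch, the match lay in the shared part in 2, Grn and Susd1.

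The 23 were nearest to genes of varied function. Creb3l3, a membrane-bound bZIP factor of fasted liver, had a 5′ UTR region at chr10:81092502-81093028 with peaks of 460 and 488 bp for GR and 384 and 347 bp for E2A. Jund, a subunit of AP-1, had a 5′ UTR region at chr8:70698388-70699517 with peaks of 708 and 1130 bp for GR and 787 and 770 bp for E2A. Both regions lay near transcript starts of GENCODE, 190 and 3 bp from the centre. Acsm1, which encodes a mitochondrial medium-chain acyl-CoA synthetase, had peaks of 316 and 544 bp for GR and 443 and 451 bp for E2A at chr7:119620072-119620646, over an exon of a noncoding transcript. Atoh8, itself a gene of a basic helix-loop-helix factor, had peaks of 339 and 316 bp for GR and 384 and 494 bp for E2A over coding exon 2 (chr6:72226906-72227472). Bcat2, a gene of branched-chain amino acid breakdown, was nearest to a region at chr7:45567596-45568687 in the noncoding transcript 0610005C13Rik.

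The host gene often differed from the nearest start site in this group. The 2 matched in 13 of the 23 regions. The region assigned to Lyl1 (chr8:84706758-84707731) lay wholly in the 3′ UTR of Nfix, a nuclear factor I gene, and the region assigned to Vps13d (chr4:145219286-145219792) in an intron of Tnfrsf1b, which encodes a receptor of tumour necrosis factor. That of Zfp422 (chr6:116635412-116635905) lay in the 3′ UTR of Rassf4, that of Mir26b (chr1:74396749-74397727) in a UTR of Ctdsp1, and that of Mir192 (chr19:6268310-6269293), a microRNA gene expressed in liver, in a noncoding transcript. The region of Slc26a1 lay in a UTR where Dgkq and Idua overlap, that of Dact1 in the noncoding transcript Gm40438, that of Eea1 in an intron of 4732465J04Rik and that of Btbd2 between genes. Regions within their nearest gene were also found at Rtkn2, Sec14l4, Adtrp, Rnf144b, Lrrn4 and Susd1.

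**Figure D3:**
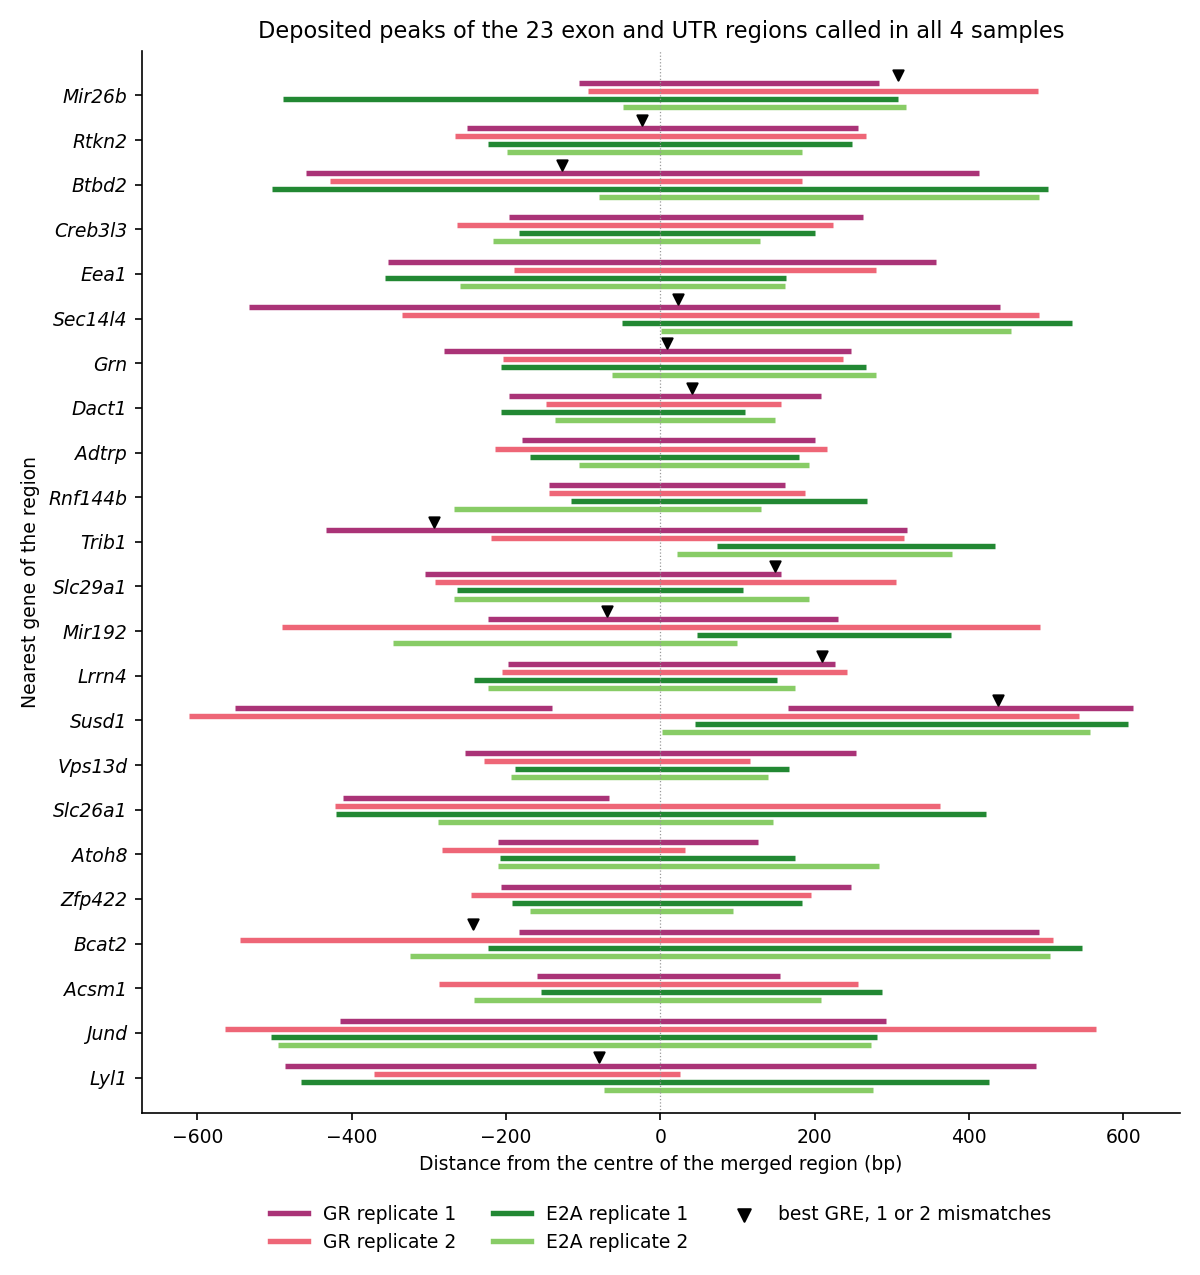
Deposited peaks of GR replicates 1 and 2 and E2A replicates 1 and 2 (coloured lines) as distance in bp from the centre of the merged region (x axis), for the 23 regions called in all 4 samples, named by nearest gene (y axis). Triangles mark the middle of the best GRE where it had 1 or 2 mismatches, which was the case in 13 regions, and the 4 peaks share 52 to 689 bp.

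Within the central 200 bp of these 23 regions an E-box occurred in 14, a GRE in 6, a GC box (GGGCGG) in 6 and a C/EBP motif (TTGCNNAA) in 5. From the exact matches to other motifs in these windows, 6 are shown as examples of the kinds found, C/EBP, HNF4, AP-1 and an E-box core, with the match in capitals, on the mm10 plus strand.
Rtkn2, C/EBP (chr10:68058013-68058036): tccaatatTTGCAAAAcctgggtc
Vps13d, C/EBP (chr4:145219465-145219488): actcgaggTTTTGCAActtgacgt
Acsm1, C/EBP (chr7:119620308-119620331): aagggaggTTAAGCAAactactcc
Adtrp, HNF4 (chr13:41828422-41828446): acacaggcTGGACTTTGcatctcgc
Slc26a1, AP-1 (chr5:108669429-108669451): gcgctggcTGAGTCAccgtacct
Mir192, E-box core CAGCTG (chr19:6268816-6268837): ttcgtggaCAGCTGgcattcta

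The C/EBP match at Rtkn2 lay 7 bp from the centre, and the region held a GRE with 2 mismatches as well. Adtrp held both a C/EBP and an HNF4 match in its central 200 bp. A match is a run of letters and was not shown to be bound.

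Regions called in 3 samples with the fewest GRE mismatches were those of Acnat2, Herpud1 and Angptl4 without a mismatch, and of Zfp385b, Epb41l4b, Fkbp5 and Synpo with 1. The next were Mreg, Epha2, Mir7032, a second Herpud1 region and Gm16833 with 2, taken in order of chromosome and start among regions with 2 mismatches. Mreg was named for a region in noncoding transcripts, Mir7032 for one in a UTR where Hip1r and Vps37b overlap, the second Herpud1 region for one in coding sequence of Slc12a3, and Gm16833 for one in an intron of Arhgap42. Of all 37 regions called in 3 samples, 21 had both GR replicates and E2A replicate 1, 6 had both GR replicates and E2A replicate 2, and both E2A replicates were joined by GR replicate 1 alone in 5 and by GR replicate 2 alone in 5. Mreg had E2A replicate 2 in place of E2A replicate 1, and Epha2, which encodes an ephrin receptor, lacked GR replicate 2. At Fkbp5 the peaks spanned 734 bp in GR replicate 1, 539 bp in GR replicate 2 and 283 bp in E2A replicate 1. That region (chr17:28522600-28523450) lay wholly in exons of noncoding transcripts beyond the start of Fkbp5, and its GRE was inside the 2 GR peaks and outside the E2A peak.

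Whether exon and UTR regions carry the GR motif as often as other GR sites was tested on sequence, which the choice of regions did not use. A GRE with at most 2 mismatches lay in the central 200 bp of 86 of 445 exon and UTR regions with GR (19.3%, interval 15.9 to 23.3%) and of 559 of 1960 intronic regions with GR (28.5%, interval 26.6 to 30.6%). The odds ratio was 0.60 (95% interval 0.46 to 0.78) with an adjusted exact p of 0.00369. Here and below this is a two-sided Fisher's exact test with Benjamini-Hochberg adjustment over 54 tests of 18 motifs in all regions, those with GR and those with E2A, unless another family is named. Regions are not biological replicates, so these p-values describe the lists and not a spread between animals. Over all merged regions with GR under 1500 bp, promoters included, 17.6% held a GRE. Against intergenic regions with GR (29.1%) the odds ratio was 0.58 with an adjusted exact p of 0.00142.

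The comparison was also made by the number of GR replicates with a call. Among exon and UTR regions with GR in both GR replicates 46 of 123 held a GRE (37.4%, interval 29.4 to 46.2%), close to 39.1% of 606 intronic regions (interval 35.3 to 43.1%). Among those with GR in 1 GR replicate the shares were 40 of 322 (12.4%, interval 9.26 to 16.5%) and 23.8% of 1354 (interval 21.6 to 26.1%). Restricted to regions called in both replicates of GR or of E2A, the odds ratio between exon and UTR and intronic regions with GR was 0.99 (adjusted exact p = 1), and restricted to regions with GR in exactly 1 GR replicate, an alternative added after the data were seen, it was 0.45 (adjusted exact p = 0.000104). The 2 restrictions were not tested against each other.

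The regions of a single GR replicate were also counted by replicate. A GRE lay in 15 of 79 regions called by GR replicate 1 alone (18.99%, interval 11.9 to 28.99%), in 21 of 183 called by GR replicate 2 alone (11.5%, interval 7.63 to 16.9%), and in 32 of 73 called by both GR replicates without E2A (43.8%, interval 33.1 to 55.2%). The intervals of the first 2 overlapped, and that of the last overlapped neither. Without GR replicate 2 the comparison with intronic regions gave an odds ratio of 0.70 (adjusted exact p = 0.699), without GR replicate 1 it gave 0.65 (adjusted exact p = 0.0538), and within bins of 5% GC content the Mantel-Haenszel test gave 0.67 (adjusted p = 0.115). The lower share of GREs thus kept its direction in each of these, and passed the threshold in none of them.

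Sites close to the consensus showed the same order. A GRE with at most 1 mismatch occurred anywhere in 27.6% of regions with GR in both GR replicates (interval 20.5 to 36.1%), in 12 of 322 with GR in 1 GR replicate (3.73%, interval 2.14 to 6.40%) and in 2 of 134 E2A only regions (1.49%, interval 0.41 to 5.28%). The doubly called regions were wider, with a median of 540 bp against 397.5 and 346.5 bp. In them the site stood a median of 59.0 bp from the centre, within 50 bp in 16 of 34.

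Beside the regions, flanking windows of 200 bp that began 500 bp outside and met no peak gave the base rate. Flanks on both sides of a region could enter. Tests against flanks, here and below, did not match a flank to its region or by base composition. A GRE lay in 15.3% of 784 flanks of regions with GR, and the regions themselves differed from this by an odds ratio of 1.33 (interval 0.96 to 1.82, adjusted exact p = 0.161), which did not pass. With at most 1 mismatch allowed the odds ratio was 5.20 (adjusted exact p = 4.79e-05), and among regions called in both replicates of GR or of E2A it was 3.02 (adjusted exact p = 0.000862). It also passed without GR replicate 1 (1.56, adjusted exact p = 0.0432) and without GR replicate 2 (1.93, adjusted exact p = 0.0119). In 9115 windows centred on other exons of the same host genes that met no peak, a GRE lay in 11.1%.

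**Figure D4:**
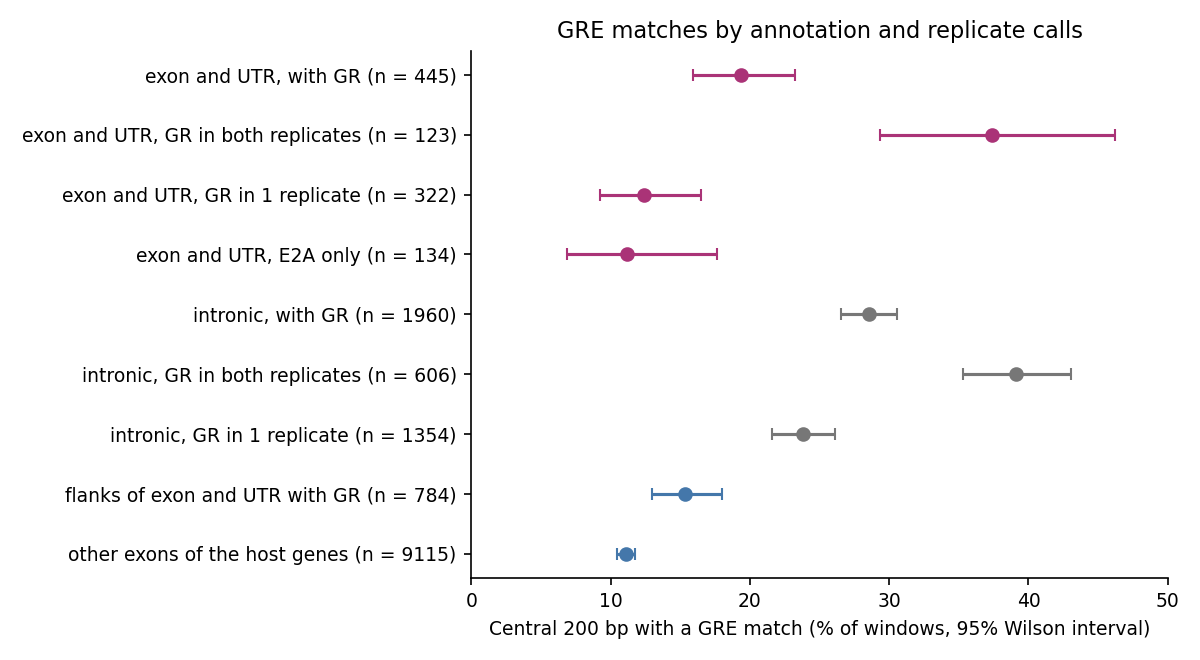
Percent of windows with a GRE of at most 2 mismatches in 200 bp (x axis, bars are 95% Wilson intervals) for exon and UTR regions (purple), intronic regions (grey), and flanks and other exons without a peak (blue). Exon and UTR regions with GR in both replicates lie at 37.4%, beside 39.1% of intronic ones, and those with GR in 1 replicate at 12.4%, beside 23.8%.

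GR only and E2A only regions were compared next. A GRE lay in 68 of 335 GR only regions (20.3%) and in 15 of 134 E2A only regions (11.2%), an odds ratio of 2.02 (interval 1.09 to 3.96) with an adjusted exact p of 0.201 over 18 motifs, which did not pass. With the replicate number as a block, and regions taken by the calls of each replicate, the Mantel-Haenszel odds ratio was 3.19 with an adjusted p of 0.000192, which passed. In that test a region called in both replicates of a factor could count in both strata. Regions with both factors could enter too, wherever only 1 of the factors had a peak in the samples of a number. The blocked test is therefore another contrast than GR only against E2A only, and its p is not comparable with the unblocked p. The unblocked ratio passed without either GR replicate, at 2.26 without GR replicate 1 (adjusted exact p = 0.0424) and 3.41 without GR replicate 2 (adjusted exact p = 0.000309). None of the 18 regions with both E2A replicates and no GR held a GRE, and the interval of that share reached 17.6%. No other motif of the 18 had an adjusted p under 0.05 between GR only and E2A only regions, and the lowest, 0.0519, was that of the CRE TGACGTCA, found in 2 of 335 and 7 of 134.

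The E-box, the motif E proteins bind, was common everywhere. CANNTG lay in 158 of 244 exon and UTR regions with E2A (64.8%), in 69.4% of intronic regions with E2A and in 57.8% of all merged regions with E2A. The odds ratio against intronic regions was 0.81 (interval 0.60 to 1.095, adjusted exact p = 0.407), and against flanks, where 69.4% held one, it was 0.81 (adjusted exact p = 0.361). In regions with E2A in both E2A replicates the share was 66.7%. Within CANNTG, the core CAGCTG lay in 13.9% of regions with E2A, the core CAGGTG in 11.9%, the core CACGTG in 4.92% and the core CATATG in 2.87%. None of the 4 cores passed against intronic regions with E2A (lowest adjusted exact p = 0.822). A difference of E-box content between E2A-bound exon and UTR DNA and its surroundings was therefore not detected with these counts.

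Of the 18 motifs, 6 differed between all exon and UTR regions and their flanks with an adjusted exact p under 0.05, and all 6 were more frequent in the regions. The GC box GGGCGG, the motif of Sp and KLF factors, had the lowest p, at 10.9 against 4.05% (odds ratio 2.89, adjusted exact p = 1.38e-05). C/EBP proteins, HNF6 and FOX proteins are hepatocyte factors that open or mark liver enhancers. The C/EBP motif lay in 83 of 579 exon and UTR regions (14.3%) against 7.43% of 1037 flanks, an odds ratio of 2.09 (interval 1.48 to 2.94, adjusted exact p = 0.000169). HNF6 (TATTGAT) lay in 5.35 against 1.64% (odds ratio 3.39, adjusted exact p = 0.000362) and FOX (TGTTTAC) in 6.39 against 2.99% (odds ratio 2.22, adjusted exact p = 0.00933). The CCAAT pentamer of NF-Y lay in 26.9 against 20.7% (adjusted exact p = 0.0227). The CRE lay in 1.55 against 0.193% (adjusted exact p = 0.0107). Over all regions, motifs of other liver factors did not pass, with adjusted exact p-values of 0.124 for DR1, 0.364 for STAT5 and 0.403 for HNF4. In regions with E2A the DR1 motif did pass, at 8.61 against 3.77% of their flanks (odds ratio 2.40, adjusted exact p = 0.0477). In regions with GR it did not (adjusted exact p = 0.361).

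Against intronic regions the C/EBP share was lower, 14.3 against 18.6% (odds ratio 0.73, interval 0.56 to 0.95), but the adjusted exact p of 0.127 did not pass, and over all merged regions it was 12.1%. By calls, the C/EBP motif lay in 29 of the 110 regions with both factors (26.4%) and in 33 of the 335 GR only regions (9.85%), a difference that was not tested. Of the 18 motifs, 2 differed between all exon and UTR regions and intronic regions with an adjusted p under 0.05. The GRE was lower (17.4 against 23.2%, adjusted exact p = 0.0322), and the GC box was higher at 10.9 against 6.60% (odds ratio 1.73, interval 1.26 to 2.36, adjusted exact p = 0.016). Without GR replicate 1 no motif passed, and without GR replicate 2 none did.

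Exon and UTR regions were richer in CpG dinucleotides. A window of 200 bp was called CpG-rich with a GC content of at least 50% and a ratio of observed to expected CpG of at least 0.6, the composition of CpG islands. This held for 79 of 579 exon and UTR regions (13.6%, interval 11.1 to 16.7%) and for 109 of 2668 intronic regions (4.09%, interval 3.40 to 4.91%), an odds ratio of 3.71 (interval 2.70 to 5.08, Fisher's exact test, two-sided, p = 1.03e-15). The background over all merged regions under 1500 bp, of which 4815 of 10485 were promoter regions, was 39.9%. Pooled over replicates, the difference held with GR (14.6 against 4.39%, exact p = 4.36e-13) and with E2A (11.1 against 5.02%, exact p = 0.000972). By sample, it passed in GR replicate 1 (odds ratio 3.727, adjusted exact p = 8.4e-05) and GR replicate 2 (3.415, adjusted exact p = 3.84e-09). It did not pass in E2A replicate 1 (1.851, adjusted exact p = 0.0864) or E2A replicate 2 (1.961, adjusted exact p = 0.185). The adjustment by sample included GRE, C/EBP and E-box tests. Against intergenic regions with E2A the odds ratio was 1.61 (interval 0.98 to 2.59).

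By annotation the CpG-rich share was 38.6% of the 70 5′ UTR regions (interval 28.1 to 50.3%), 11.3% of regions annotated Exon and 8.33% of 3′ UTR regions. It was 26.2% with a start site within 1 kb and 8.35% without one. Regions without a start site within 1 kb in both groups still differed from intronic ones, with an odds ratio of 3.87 (exact p = 2.05e-08), in a comparison added after the data were seen. Other exons of the same host genes without a peak were CpG-rich in 9.75% of 9115 windows (interval 9.16 to 10.4%), and the flanks in 3.18%. By calls, 20.2% of the regions of GR replicate 2 alone were CpG-rich and 6.33% of those of GR replicate 1 alone, and the odds ratio against intronic regions was 2.51 without GR replicate 2. The part of exon composition and of nearby starts in this difference was not tested.

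**Figure D5:**
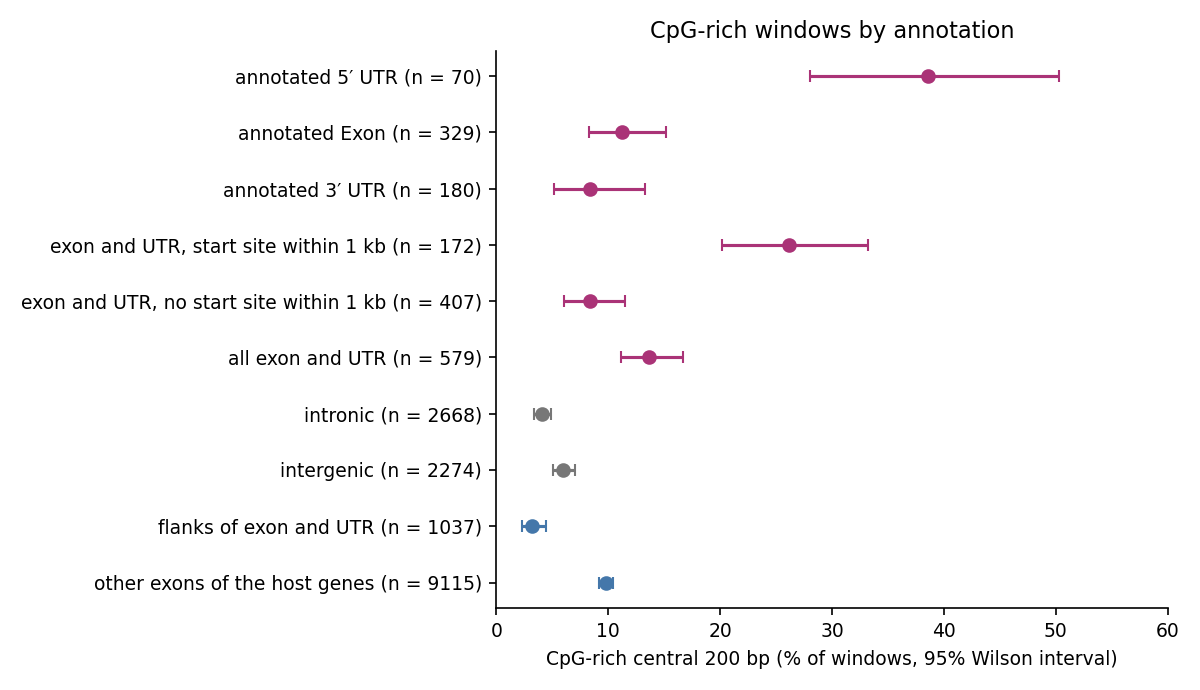
Percent of 200 bp windows that are CpG-rich (x axis, bars are 95% Wilson intervals) for exon and UTR regions by annotation and by distance to a start site (purple), intronic and intergenic regions (grey), and flanks and other exons without a peak (blue). The 5′ UTR regions lie at 38.6%, all exon and UTR regions at 13.6% and intronic regions at 4.09%.

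Repeats took little of the regions. A median of 7.08% of a region's bases was marked as repeat in the reference, and 4 of 579 regions were at least 50% repeat (0.69%, interval 0.27 to 1.76%), beside 4.91% of intronic and 6.99% of intergenic regions.

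The 579 regions were nearest to 510 genes, and 47 genes had more than 1 region. The long noncoding RNA Neat1, the scaffold of nuclear paraspeckles, had the most with 9, of which 5 were GR only, 2 E2A only and 2 both. All 9 were centred in its single exon, and along chr19:5824387-5843540 the GR replicate 2 calls and the GR replicate 1 calls did not overlap. GR replicate 2 had peaks in the 4 regions between 5824387 and 5829629, E2A replicate 2 in the region at 5826086 and in the 3 regions between 5828467 and 5837797, and GR replicate 1 in the 3 between 5840551 and 5843540. Neat1 was therefore called by all 4 samples, but no 1 region of it by more than 3.

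Apob, which encodes the core protein of very low density lipoproteins, had 7 regions between chr12:7982100 and chr12:8011230, 6 annotated Exon and 1 annotated 3′ UTR. All 7 were called by GR replicate 2 alone. C3, the central complement component made by liver, hosted the 3 regions assigned to the microRNA Mir6978 and 2 of the 3 assigned to C3 itself, the other lying in Gpr108, and all of these were called by GR replicate 2 alone. The same held for the 3 regions of the complement gene C4a and the 3 of the protease inhibitor gene Serpina1a. Serpina1a has near-identical copies. Only uniquely mapped pairs had been kept, and the copy a peak belongs to was not checked further. Selenbp2, a selenium-binding protein gene, had 3 regions from GR replicate 2 alone and 1 from E2A replicate 2 alone. Cyp3a25, a cytochrome P450 gene, had 3 regions from E2A replicate 1 alone. The repeated regions of these genes thus rested on 1 sample each.

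Jun, Plcb3 and Myom3 also had 3 regions. At Jun, which encodes an AP-1 subunit, the 3′ UTR and the coding exon had peaks of GR replicate 2 alone, and a more distant region, in the noncoding transcript Junos at chr4:95161131-95162032, had peaks in both GR replicates and E2A replicate 1. The GR peaks there, 95161685-95161973 in replicate 1 and 95161131-95161684 in replicate 2, shared no base and were joined through the E2A peak. Myom3 had 1 region with both GR replicates and a GRE with 1 mismatch, at chr4:135788311-135788979.

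Genes of 10 lists were counted among the nearest genes, with 7.88% of all 6474 nearest genes having an exon or UTR region as the base. Plasma protein genes had the most, 14 of 42 with 27 regions, of which 24 were GR only, 1 E2A only and 2 both. GR replicate 2 alone called 21 of these 27 (77.8%, interval 59.2 to 89.4%), against 31.6% of all exon and UTR regions, which was counted and not tested. In intronic regions nearest to the same genes the figure was 10 of 26 (38.5%, beside 20.2% of all intronic regions). It was 5 of 33 in intergenic regions (15.15%, beside 20.8%) and 6 of 22 in promoter regions (27.3%, beside 47.3%). The interval of the 77.8% takes regions as independent, although 7 of the 27 were at Apob. The plasma protein regions with more than 1 sample were those of Serpinc1 (antithrombin) and Apoa1 (the main protein of high density lipoproteins), each with both GR replicates, and of Itih2 and Apoc2, each with GR replicate 2 and E2A replicate 1. A GRE lay in the central 200 bp of 5 of the 27 and none was CpG-rich.

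Glucocorticoid targets with an exon or UTR region were 4 of 16. Fkbp5 and Angptl4 had the regions described above with 3 samples each. Dusp1, which encodes a phosphatase of MAP kinases, had a region at chr17:26506067-26506977 with GR replicate 2 and E2A replicate 1, and a second with GR replicate 2 alone. Tat, which encodes tyrosine aminotransferase, had a region at chr8:109986373-109986708 with GR replicate 1 and E2A replicate 2, and GENCODE holds no exon there. Both factors were called in 4 of the 5 regions of this list, beside 110 of all 579, and nothing is read from so few.

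The other lists held few regions. Nitrogen metabolism had 6 of 27 genes with 8 regions, of which 4 had more than 1 sample. Beside Tat these were at the glutaminase gene Gls2 and the glycine methyltransferase gene Gnmt, each with a region called by both GR replicates, that of Gnmt in an intron of another transcript. The last was at the tryptophan dioxygenase gene Tdo2, which was nearest to a region with GR replicate 2 and E2A replicate 1 in the 3′ UTR of Ctso. Lipid metabolism had 7 of 26 genes with 8 regions. None of the 8 had both factors, beside 19% of all exon and UTR regions, and nothing is read from so few. Plin5, a lipid droplet protein gene, had both GR replicates. The cholesterol exporter gene Abca1 had GR replicate 2 alone. The 2 regions of the list with E2A were both at Fasn, which encodes fatty acid synthase, and were called by E2A replicate 1 alone.

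Glucose metabolism had 3 of 19 genes, Slc2a2, Pklr and Ppp1r3b, each in 1 sample. The region nearest to Pklr lay in a UTR of Hcn3. Insulin and FoxO signalling had 2 of 11, Trib1 in all 4 samples and Irs1 in E2A replicate 1 alone. Clock genes had 2 of 15, Bhlhe40 with both GR replicates, over exons of the noncoding transcripts 0610040F04Rik and Gm17055, and Dbp with GR replicate 2 alone. The fixed list of E proteins, Id proteins and other basic helix-loop-helix factors had 2 of 16 genes. Hes1, a target of Notch signalling, had both GR replicates and E2A replicate 1 over its last exon. Usf2 had GR replicate 2 alone over the neighbouring gene Lsr. Atoh8, a gene of this class described above, was not on that list. Of 17 hepatocyte factor genes only Cebpd had one, a 3′ UTR region with both GR replicates and a GRE with 1 mismatch 10 bp from its centre. None of the 7 markers of other liver cells had an exon or UTR region.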

How the data were processed

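Per the labels and the methods of the study, chromatin of mouse livers was immunoprecipitated for GR or E2A with 8 µg of antibody after fixation in 1% formaldehyde. The authors mapped reads to mm10, removed duplicates, downsampled uniquely mapped pairs to 18 mio per GR and 22 mio per E2A library, called peaks per replicate with MACS2 and annotated each peak with its nearest gene. The submitters' processing notes name BWA 0.7.13, Picard 1.119 and MACS2 2.1.0. The methods of the study name other versions of Picard and MACS2, and which versions made the deposited lists is not known. The deposited lists give each peak's start, end and width and its distance to the nearest start site in bp, with no height, q-value or count. The peak threshold, control and annotation tool are not given in the sources used here.

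From these lists, overlapping peaks were merged and grouped by the deposited annotation. Nearest genes were taken as deposited. Sequence came from the GRCm38.p6 reference, of which mm10 is the same build, and gene models from GENCODE M21. Motifs were searched in the central 200 bp on both strands, the GRE and the DR1 with at most 2 mismatches, the CTCF core with at most 1 and the others exactly. Short motifs were HNF4 (CAAAGTCCA), STAT5 (TTCNNNGAA), AP-1 (TGANTCA), the AGAACA hexamer, which a GRE can contain, and those spelled out with the results. Shares carry 95% Wilson intervals, which cover counting error only. Shares were compared with Fisher's exact test in SciPy 1.17.1 (Python 3.11.15, pandas 2.3.3, pysam 0.24.0), and the scripts were tested on simulated data.

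Groups and replicate numbers followed the labels, although file names swap the 2 GR replicates. Regions and gene lists were chosen with earlier results of these data known. Named are all regions called in 4 samples, up to 12 called in 3 ordered by GRE mismatches, genes with 3 or more regions, up to 3 regions per list in order of samples called, and genes of list counts of 5 or fewer, the last chosen after their values were seen. Alternatives were other merging, width, window, mismatch and annotation rules, leaving out each replicate, and 5 added after the data were seen.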

Additional observations from a re-analysis of the deposited data

How the results depend on the processing

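Of 118 alternative values, 89 kept their direction and side of the threshold or moved little. The CpG-rich odds ratio against intronic regions did so in all 13 of its alternatives (2.44 to 4.91). The number of regions ran from 425 to 559 without 1 replicate. The share with both factors was 15.16% where every peak had to be annotated exon or UTR, and 10.58 to 19.29% without 1 replicate. The share centred in an exon became 49.91% when at least 50% of bases had to be exonic. Shares called in both replicates of a factor could not be computed without 1 of them.

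The GRE odds ratio against intronic regions no longer passed over the whole region (0.7398), in the central 100 bp (0.6852), in regions called in both replicates of a factor (0.9901), within GC bins (0.6667) and with at most 1 mismatch (0.652). Without 1 replicate it was 0.6068 to 0.6987. The number of motifs that differed, 2 in the report, was 1 for regions under 1000 bp and over the whole region, 0 with every peak annotated exon or UTR, in the central 100 bp and in regions called in both replicates of a factor, and 0 to 2 without 1 replicate. The E-box odds ratio changed direction over the whole region (1.063, adjusted exact p = 1). The C/EBP motif passed against intergenic regions (0.6708). Against flanks the GRE passed in regions called in both replicates of a factor (3.02), with at most 1 mismatch (5.197) and without 1 replicate (1.388 to 1.928, not in every case). Between GR only and E2A only it passed over the whole region (2.086), with at most 1 mismatch (9.804), in regions called in both replicates (28.98, with 0.5 added to each cell) and in some cases without 1 replicate (1.432 to 3.407). The cause was not tested.

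With the replicate number as a replicate block the odds ratio of GR without E2A against E2A without GR, by the calls of each number, was 3.191 (the adjusted exact p without the block was 0.201, and the adjusted Mantel-Haenszel p with it 0.000192). The blocked test also took in regions with both factors, so the p-values are not comparable. The study says that both antibodies were used on the same set of livers, whereas no source used here ties equal numbers to 1 animal. Calls that differed between replicates 1 and 2 of GR and of E2A correlated by 0.0894 over the regions. Because the same calls chose the regions, this value cannot tell whether equal numbers share an animal. With 2 samples per antibody and no peak heights, a site without binding and a site just under the peak threshold cannot be told apart, and no spread between animals was estimated.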
